A study of Callithrix jacchus with 20 samples.

Results

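The genes described here are the canonical cytoplasmic ribosomal protein genes of the common marmoset, taken by their symbols (RPL or RPS with a number, RPLP0, RPLP1, RPLP2 and RPSA, with no LOC identifiers). Of the 21184 genes listed in both the stem cell table and the EB table, 77 met this rule, 46 for the large subunit and 31 for the small subunit, and 6 of the 77 were paralogs of another member (RPL3L, RPL7L1, RPL22L1, RPL26L1, RPL39L and RPS27L). The libraries came from wild-type control embryonic stem cell (ESC) lines of fertilized embryos (natural, NAT, #13 and #37, and in vitro fertilization, IVF, #15 and #17), from wild-type ntESC lines (ntESC WT #30, #53 and #61) and from CAG-EGFP transgenic ntESC lines (ntESC GFP #24, #50, #54 and #55). An ntESC line is derived from an embryo made by somatic cell nuclear transfer (SCNT) of an adult ear skin fibroblast, and these embryos had received 25 nM trichostatin A, 1 µM of the G9a inhibitor RK-701 and mouse Kdm4d mRNA at 1500 ng/µl. Embryoid bodies (EBs) were aggregates cultured for 30 days, with Y-27632 on day 1, from control lines #13, #17 and #37, from ntESC WT #30, #53 and #61 and from ntESC GFP #24 and #50. One culture of wild-type donor fibroblasts completed the 20 libraries. Control ESCs were at passages 7 to 21 and ntESCs at passages 5 to 10. Each line gave 1 library per stage, so a replicate was a cell line. Some lines may stem from the same donor animal, and line GFP #54 was found to carry a translocation at a later passage.

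The eukaryotic ribosome is built from ribosomal RNA and a fixed set of proteins, most of them present once per particle. The large subunit forms the peptide bond and the small subunit decodes the mRNA, and the acidic proteins of the stalk (RPLP0, RPLP1 and RPLP2) recruit translation factors. Nearly all of these proteins are made in every cell type, whereas a few paralogs are used mainly in one tissue, such as RPL3L in striated muscle and RPL39L in the testis.

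Values are TPM, a level per transcript length scaled so that each library sums to 1000000, and therefore a share of the mRNA and not an amount per cell. Reads with more than 1 location in the genome had been dropped. Ribosomal protein genes have many near-identical processed copies, so all levels given below are uncertain to the degree that reads were lost to such copies, and differences between genes more so than differences of 1 gene between libraries. TPM carries no read total, so the depth behind each value is unknown. The genes RPL7A, RPL29, RPL10, RPL10L, RPL36A, RPL39 and RPS4X did not appear under these symbols and were not analysed here.

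The 10 pluripotency markers summed to between 3878 and 9540 TPM in the stem cell libraries and to 3.45 TPM in the fibroblasts. In EBs the sum was 44.0 to 256 TPM, except for 5757 TPM in ntEB GFP #24, where POU5F1 stood at 1247 TPM and NANOG at 831 TPM. In the other 7 EBs POU5F1 was at most 25.8 TPM, the value of ntEB GFP #50. All 10 markers reached 1 TPM in both ntEB GFP libraries and 5 to 7 of 10 in each of the others. The medians of the members that rest on the ntEB GFP group, and the log2 fold changes of the leading genes in it, are therefore given with and without #24. EBs hold several cell types, and in such bulk samples fewer cells of a type and less RNA per cell cannot be told apart.

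Ribosomal protein mRNAs were among the most abundant of the stem cells, with 52 of the 77 genes among the 100 highest genes and 70 among the 500 highest by mean TPM over the 11 ESC and ntESC lines. None was at 0 in any library. The mean level ran from 660 to 4128 TPM for large subunit genes other than paralogs (median 1840 TPM) and from 275 to 5691 TPM for those of the small subunit (median 1879 TPM). The paralogs lay far lower, at 2.45 to 257 TPM. RPS18, a protein of the head of the small subunit, was the highest, with a mean of 5691 TPM at the stem cell stage and 9998 TPM in EBs. Other members of high level were RPL13A, a large subunit protein that also has roles outside the ribosome (4128 TPM), RPLP0, the base of the stalk (4058 TPM), and RPS12 (3620 TPM). The 5 lowest were paralogs, namely RPL7L1 (159 TPM), RPL26L1 (112 TPM), RPS27L (68.1 TPM), RPL39L (31.4 TPM) and RPL3L (2.45 TPM).

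Most members differed little between stem cell lines. The range over the 11 lines, on the log2(TPM + 0.1) scale, had a median of 0.49 over the 77 genes and was narrowest for RPL22, at 0.21. It was widest for RPL34 (2.74), RPS2 (1.72), RPL38 (1.17), RPS29 (1.02) and RPL22L1 (1.01).

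Together the 77 genes took up 12.8% to 13.2% of the TPM in the 4 control ESC lines (13.0% ± 0.205, SD, n = 4). The share was 13.9%, 14.2% and 15.3% in ntESC WT #30, #53 and #61 (14.5% ± 0.755, SD, n = 3), and 14.3%, 15.2%, 13.6% and 15.8% in ntESC GFP #24, #50, #54 and #55 (14.7% ± 0.951, SD, n = 4). All 7 ntESC lines thus lay above all 4 control lines. The fibroblast library, at 11.9%, lay below them. In control EBs of #13, #17 and #37 the share was 21.3%, 20.6% and 20.1% (20.7% ± 0.581, SD, n = 3). It was 18.9%, 22.9% and 20.0% in ntEB WT #30, #53 and #61 (20.6% ± 2.07, SD, n = 3), and 15.9% and 21.4% in ntEB GFP #24 and #50 (18.7% ± 3.84, SD, n = 2). Each EB lay above all stem cell lines, although ntEB GFP #24, with the high pluripotency markers, only just exceeded ntESC GFP #55.

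**Figure D1:**
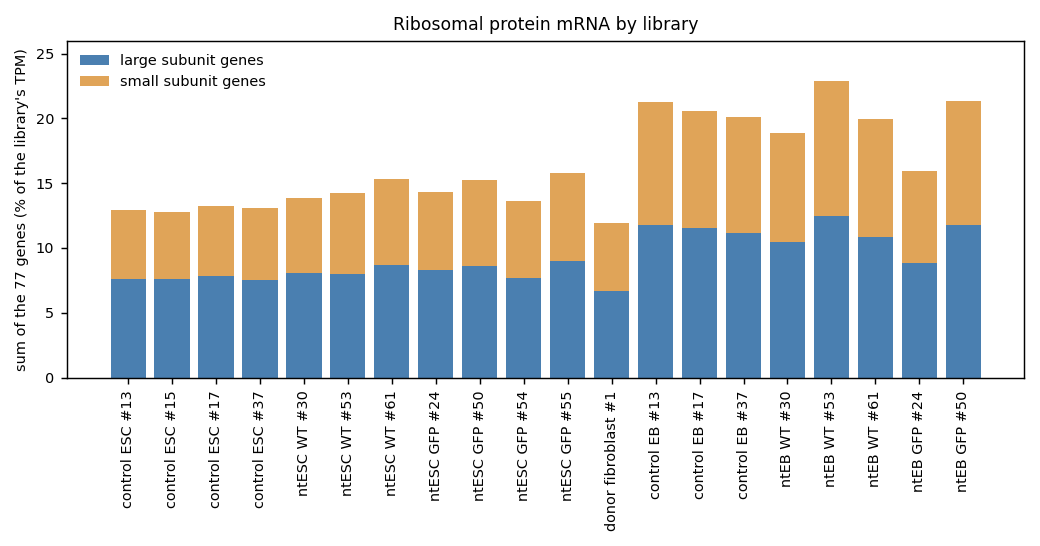
Stacked bars give the sum of the 77 ribosomal protein genes in each of the 20 libraries as a percentage of that library's TPM, split into large subunit genes (blue, below) and small subunit genes (orange, above). The stem cell libraries end between 12.8% and 15.8%, the fibroblasts at 11.9% and the EBs between 15.9% and 22.9%.

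Within a line, the sum of the 77 genes in EBs over that in its stem cells was 1.65-fold in control #13, 1.56-fold in #17 and 1.53-fold in #37. It was 1.36-fold, 1.61-fold and 1.30-fold in WT #30, #53 and #61, and 1.11-fold and 1.40-fold in GFP #24 and #50. RPS18 gave the largest rise in TPM of any member in every one of these 8 lines. The balance between the subunits also moved, since the sum of large subunit genes over that of small subunit genes was 1.34 to 1.46 in control ESCs, 1.27 to 1.38 in ntESCs and 1.19 to 1.28 in EBs, with 1.26 in the fibroblasts.

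The first comparison asked how the members differ between control EBs and control ESCs. With limma on log2(TPM + 0.1) and Benjamini-Hochberg adjustment over 16545 genes, 54 of the 77 members were higher in EBs and 3 lower, against 20.7% of all genes higher and 35.9% lower. The median log2 fold change of the members was 0.70, whereas that of all genes was -0.28. By subunit, 25 of the 30 small subunit genes other than paralogs rose (median 0.77) and 27 of the 41 large subunit genes (median 0.62), with RPL5 the single one of these 71 called lower. How the libraries are scaled matters here. Quantile normalization, which gives all libraries the same distribution of values, left 42 higher and 9 lower with a median of 0.37, whereas scaling by the median of ratios gave 64 higher and 1 lower with a median of 0.97. Of all genes, 4042 were higher and 4946 lower of 16545 under quantile normalization. With the median of ratios they were 4462 and 4690 of 16525. These settings moved the median of all genes by 0.19 and 0.26. Recomputing each library's scale over the genes other than the members gave 61 higher and 2 lower, against 4008 and 5325 of all 16991 genes.

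RPS29, a small zinc-binding protein of the small subunit, showed the largest rise. It stood at 611, 588, 661 and 631 TPM in control ESC #13, #15, #17 and #37 and at 2234, 2282 and 2413 TPM in the EBs of #13, #17 and #37. All control EBs thus lay more than 3-fold above every control ESC line. The mean fold was 3.71, and the log2 fold change was 1.89 (SE 0.17, adjusted p = 1.74e-06).

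RPL41, which encodes the shortest protein of the ribosome, was at 1191, 1089.7, 1185 and 1173 TPM in control ESC #13, #15, #17 and #37 and at 3686, 3471 and 3335 TPM in the EBs. RPL37A, a zinc-finger protein of the large subunit, went from 1691, 1796, 1953 and 1983 TPM in the ESCs to 4993, 5509 and 5825 TPM in the EBs. RPS27A, which is made as a fusion with ubiquitin, was at 851, 822, 894 and 998 TPM in the ESCs and at 2586, 2685 and 2453 TPM in the EBs. For all 3 the groups lay far apart, with log2 fold changes of 1.59 (SE 0.16, adjusted p = 3.29e-06), 1.55 (SE 0.15, adjusted p = 2.68e-06) and 1.53 (SE 0.15, adjusted p = 2.48e-06).

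RPS28, a small subunit protein at the mRNA exit, was among the lower members, at 246, 238, 241 and 264 TPM in the ESCs and 703, 636 and 673 TPM in the EBs. Its log2 fold change was 1.44 (SE 0.13, adjusted p = 1.62e-06). Of the 5 parents of paralogs, 3 rose, namely RPS27 (1.20, SE 0.24, adjusted p = 0.000496), RPL26 (1.10, SE 0.17, adjusted p = 8.44e-05) and RPL7 (0.31). The call of RPL7 was lost with no filter on low values (limma adjusted p = 0.0503) and under quantile normalization (0.10). It was also lost in the lines with both stages, with or without the line as a block. Leaving out control ESC #13, #15 or #37 or control EB #13, #17 or #37 removed it too. RPL38, which in the mouse is needed for normal patterning of the axial skeleton, rose by 1.29 (SE 0.22, adjusted p = 0.000155).

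Among the most abundant members, RPS18 rose from 4697, 4719, 5281 and 5248 TPM in control ESC #13, #15, #17 and #37 to 10802, 10386 and 9668 TPM in the EBs of #13, #17 and #37, a log2 fold change of 1.05 (SE 0.13, adjusted p = 1.4e-05). The values did not overlap. RPS12 (0.75, SE 0.14, adjusted p = 0.000337) and RPL13A (0.69, SE 0.17, adjusted p = 0.00268) also rose. RPLP0 was at 3915, 3926, 4258 and 3657 TPM in the ESCs and 5322, 4341 and 4362 TPM in the EBs, and its log2 fold change of 0.24 (SE 0.14, adjusted p = 0.137) did not pass. After quantile normalization RPS18 and RPL13A no longer passed, with log2 fold changes of 0.11 and 0.16.

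A group of 20 members did not pass in either direction. It held the stalk genes RPLP0 and RPLP2, RPL3 and RPL4 of the core of the large subunit, RPL11, which joins RPL5 and 5S ribosomal RNA, RPS6, the substrate of S6 kinase, and RPL6, RPL8, RPL10A, RPL14, RPL22, RPL23, RPL24, RPL34, RPL39L, RPL3L, RPS15, RPS2, RPS3A and RPS9. RPL3 was at 2031, 1950.3, 2040.1 and 1871 TPM in the ESCs and 2306, 2131 and 1843 TPM in the EBs. Its log2 fold change was 0.08, and quantile normalization turned it to -0.30 (adjusted p = 0.0296). RPL5, which with RPL11 and 5S ribosomal RNA binds MDM2, fell from 1888, 1779, 1834 and 1731 TPM to 1557, 1601 and 1480.3 TPM, by 0.23 on the log2 scale (SE 0.09, adjusted p = 0.0373). The groups did not overlap, but the call was lost without any 1 of control ESC #13, #15 or #17 or of the 3 control EBs, and in the 16 paired libraries, with or without the line as a block, and the median-of-ratios scaling turned the value to 0.04.

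**Figure D2:**
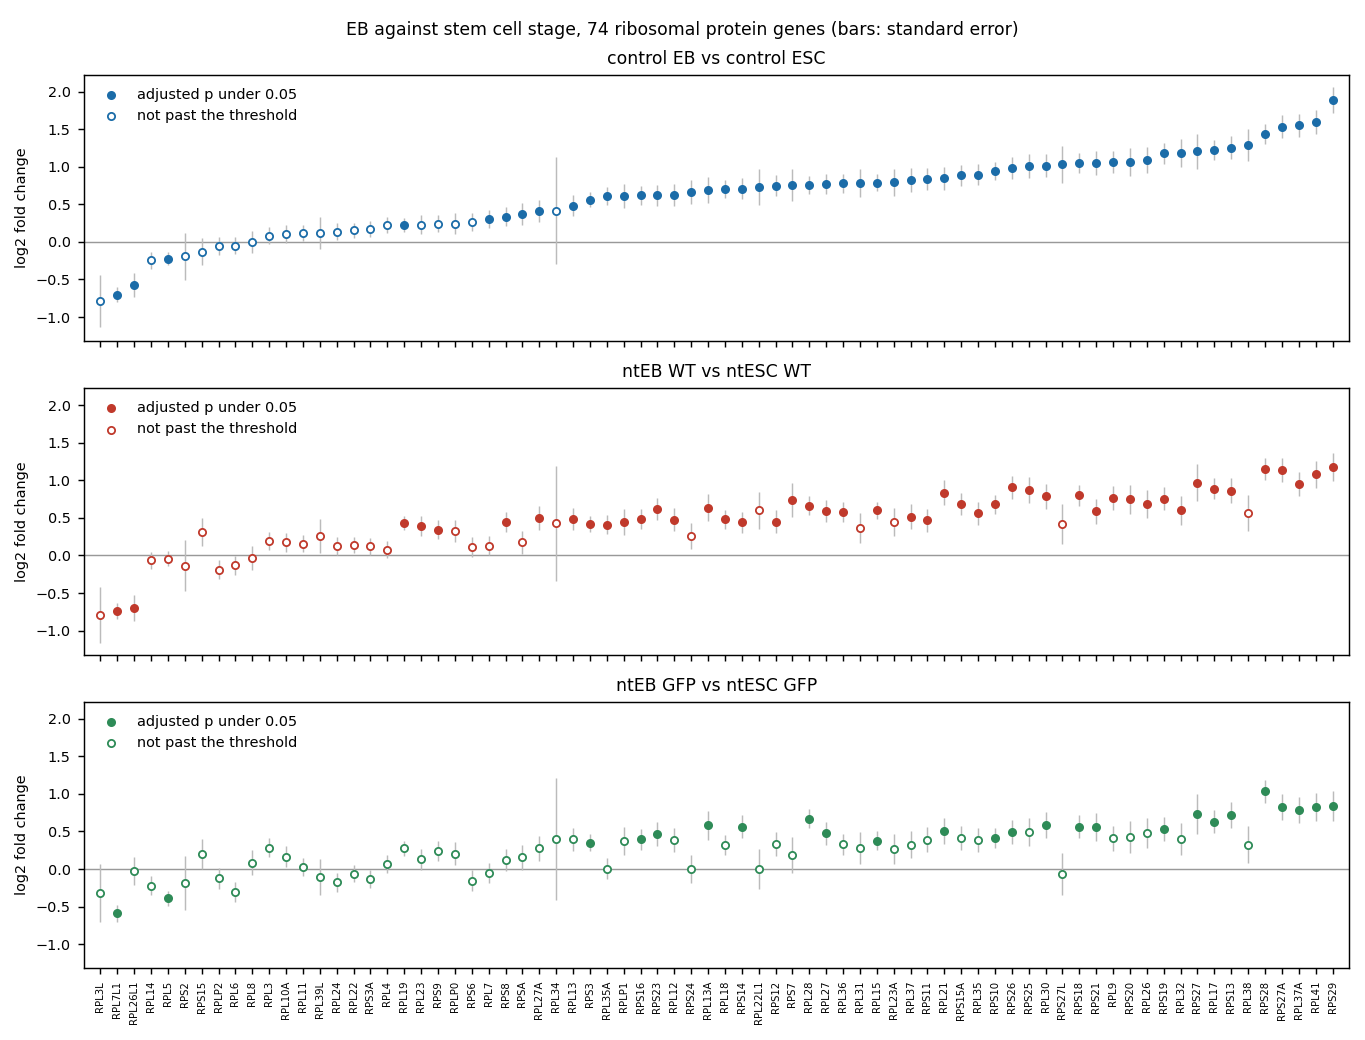
Each point is the log2 fold change of 1 of 74 of the genes between EBs and stem cells, with its standard error as a bar, in control lines (top), WT lines (middle) and GFP lines (bottom), and the genes are in the order of the control comparison. Filled points passed an adjusted p of 0.05, which 51, 45 and 23 of the genes drawn did as higher and 3, 2 and 2 as lower.

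The same comparison in the SCNT lines asked whether EBs from ntESCs showed these changes. In ntEB WT against ntESC WT, 48 members were higher and 2 lower, with a median log2 fold change of 0.47, against 14.3% of all genes higher, 32.1% lower and a median of -0.33. Of the 48, 46 were also among the 54 of the control lines, which is 95.8% of the former and 85.2% of the latter, and RPL23 and RPS9 were the other 2. Under quantile normalization the split was 28 higher and 8 lower, against 3120 and 3926 of all 16545 genes. In ntEB GFP against ntESC GFP, 25 were higher and 2 lower, with a median of 0.33, against 13.6% of all genes higher, 16.2% lower and a median of -0.12. All 25 were among those called in both other comparisons, 46.3% of the 54 and 52.1% of the 48. Quantile normalization left 11 higher and 6 lower in the GFP lines, against 2165 and 3065 of all 16545 genes. The share of members higher was then near that of all genes. Across the 77 genes the log2 fold change in control lines and that in WT lines, which share no library, had a Pearson r of 0.93 and a Spearman rho of 0.90, and control and GFP lines had 0.85 and 0.82. Genes are not independent replicates, and these values only describe how alike the patterns were.

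The GFP comparison rested strongly on single libraries. Without ntEB GFP #24, the EB with high pluripotency markers, the median was 0.49, and without ntEB GFP #50 it was 0.13. Each of these fits leaves 1 GFP EB, so the members called in them are not counted here. Leaving out ntESC GFP #24 gave 16 members higher and leaving out ntESC GFP #54 gave 14. With the line as a block in the 16 libraries of the 8 lines that have both stages, 9 members were higher and 0 lower, and the same 16 libraries without the block gave 8 and 1. For these last fits the share of all genes is not given here.

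The 5 genes that rose most in the control lines were also the 5 with the largest called rises in the GFP lines, and 4 of them were among the first 5 in the WT lines, where RPS27 (0.97) stood just before RPL37A (0.95). RPS29 was at 736, 1010.5 and 1192 TPM in ntESC WT #30, #53 and #61 and at 1937, 2274 and 2298 TPM in their EBs, a log2 fold change of 1.17 (SE 0.19, adjusted p = 0.000159). In the GFP lines it was at 795, 1158, 977 and 1179 TPM in ntESC #24, #50, #54 and #55 and at 1487 and 2217 TPM in the EBs of #24 and #50, a log2 fold change of 0.84 (SE 0.20, adjusted p = 0.00611). The EB levels of the WT lines were thus near those of the control EBs, from higher levels in the stem cells.

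RPS28 had 341, 276 and 277 TPM in ntESC WT and 542, 693 and 760.5 TPM in ntEB WT, and 288, 299, 249.8 and 303 TPM in ntESC GFP against 506 and 666 TPM in ntEB GFP. Its log2 fold changes, 1.15 (SE 0.14, adjusted p = 2.47e-05) and 1.03 (SE 0.15, adjusted p = 0.000345), were the ones closest to that of the control lines among the 5 leading genes. RPS27A rose by 1.14 (SE 0.16, adjusted p = 6.8e-05) in WT and 0.82 (SE 0.17, adjusted p = 0.00292) in GFP lines, RPL41 by 1.08 (SE 0.17, adjusted p = 0.000183) and 0.83 (SE 0.18, adjusted p = 0.00462), and RPL37A by 0.95 (SE 0.16, adjusted p = 0.000292) and 0.79 (SE 0.17, adjusted p = 0.00429). The GFP calls of RPS29, RPS27A, RPL41 and RPL37A were lost without ntEB GFP #50, and the values were then 0.55, 0.41, 0.46 and 0.52. Without ntEB GFP #24 they were 1.13, 1.24, 1.20 and 1.06, and that of RPS28 was 1.23. RPS27 rose by 0.97 (SE 0.25, adjusted p = 0.00541) in the WT lines.

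RPS18 was at 4914, 6043 and 6461 TPM in ntESC WT #30, #53 and #61 and 9269.6, 12025 and 9059 TPM in their EBs, with a log2 fold change of 0.80 (SE 0.14, adjusted p = 0.000341). In the GFP lines it was at 6064, 6216, 6399 and 6558 TPM in the stem cells and 8305 and 10469 TPM in the EBs, a log2 fold change of 0.56 (SE 0.15, adjusted p = 0.0114). The stages did not overlap in either set of lines. Quantile normalization turned the direction of RPS18 in both sets, to -0.18 and -0.22, and the GFP call was lost without ntEB GFP #50 (0.40) and in the 16 paired libraries (0.60), with or without the block. Without ntEB GFP #24 it was 0.73. RPL5 had 1776, 1914 and 1815 TPM in ntESC WT and 1766, 1783 and 1799 TPM in ntEB WT, which overlapped, and a log2 fold change of -0.04 (SE 0.09, adjusted p = 0.743). In GFP lines it was at 1578, 1560.3, 1516 and 1739 TPM in the stem cells and 1137 and 1310.3 TPM in the EBs, and fell by 0.39 (SE 0.10, adjusted p = 0.00975), a call that was lost without ntEB GFP #24 (-0.28), under the median-of-ratios scaling (-0.29) and in the 16 paired libraries (-0.36), with or without the block.

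Whether the change to EBs differed between SCNT and control lines was tested by a contrast of contrasts. No member passed for WT lines, where 0% of all genes were called higher and 0% lower, and the median difference of the members was -0.15 against -0.05 for all genes, with 5 members (of 1123 genes) at an unadjusted limma p under 0.05. No member passed for GFP lines either, where 0.0181% of all genes were called higher and 0% lower. The median difference was -0.36 against 0.23 for all genes, and 29 members (of 2403 genes) had an unadjusted p under 0.05. In GFP lines the values of RPS27L (-1.10, SE 0.38, adjusted p = 0.239), RPS29 (-1.05, SE 0.26, adjusted p = 0.175) and RPL38 (-0.96, SE 0.33, adjusted p = 0.243) were among the lowest. Without ntEB WT #61, which enters only through the shared spread, 2 members were called lower, and the share of all genes in that fit is not given here. With a single GFP EB left, the median difference of the members was -0.15 without ntEB GFP #24 and -0.52 without #50. The latter fit keeps only #24, with its high pluripotency markers, and members called lower in it are not counted here.

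The 25 genes called higher in all 3 comparisons included RPS3, RPS13, RPS14, RPS18, RPS19, RPS27, RPS27A, RPS28 and RPS29 of the small subunit and RPL13A, RPL15, RPL17, RPL30, RPL37A and RPL41 of the large subunit. Their log2 fold changes ran from 0.56 to 1.89 in control, from 0.42 to 1.17 in WT and from 0.35 to 1.03 in GFP lines, with RPS3 the lowest of them in control, WT and GFP lines alike. Not all of the GFP calls were firm. That of RPS27 (0.73, SE 0.27, adjusted p = 0.0494) was lost under quantile normalization (0.52), with no filter on low values, without ntEB GFP #50 (0.34), without any 1 of the ntESC GFP lines and without most of the single libraries that enter only through the shared spread, and it was 1.12 without ntEB GFP #24. That of RPL13A (0.58, SE 0.19, adjusted p = 0.0339) was lost under quantile normalization (0.20), in the 16 paired libraries (0.52), with or without the block, and without ntESC GFP #50, #54 or #55 or ntEB GFP #50 (0.24). RPS19, the gene most often mutated in Diamond-Blackfan anaemia in humans and one picked after its values were seen, was at 1382, 1386, 1570.3 and 1616 TPM in control ESC #13, #15, #17 and #37 and at 3286, 3420.0 and 3371 TPM in the control EBs. Its EBs were at 2763, 3319.9 and 3207 TPM in WT #30, #53 and #61 and at 1872 and 3112 TPM in GFP #24 and #50, so that #24 was the lowest of the 8. Of the 3 stalk genes, RPLP1 had log2 fold changes of 0.61 (adjusted p = 0.00478), 0.45 (adjusted p = 0.0436) and 0.37 (adjusted p = 0.136) in control, WT and GFP lines, whereas RPLP2 had -0.06, -0.19 and -0.12 and passed in none.

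**Figure D3:**
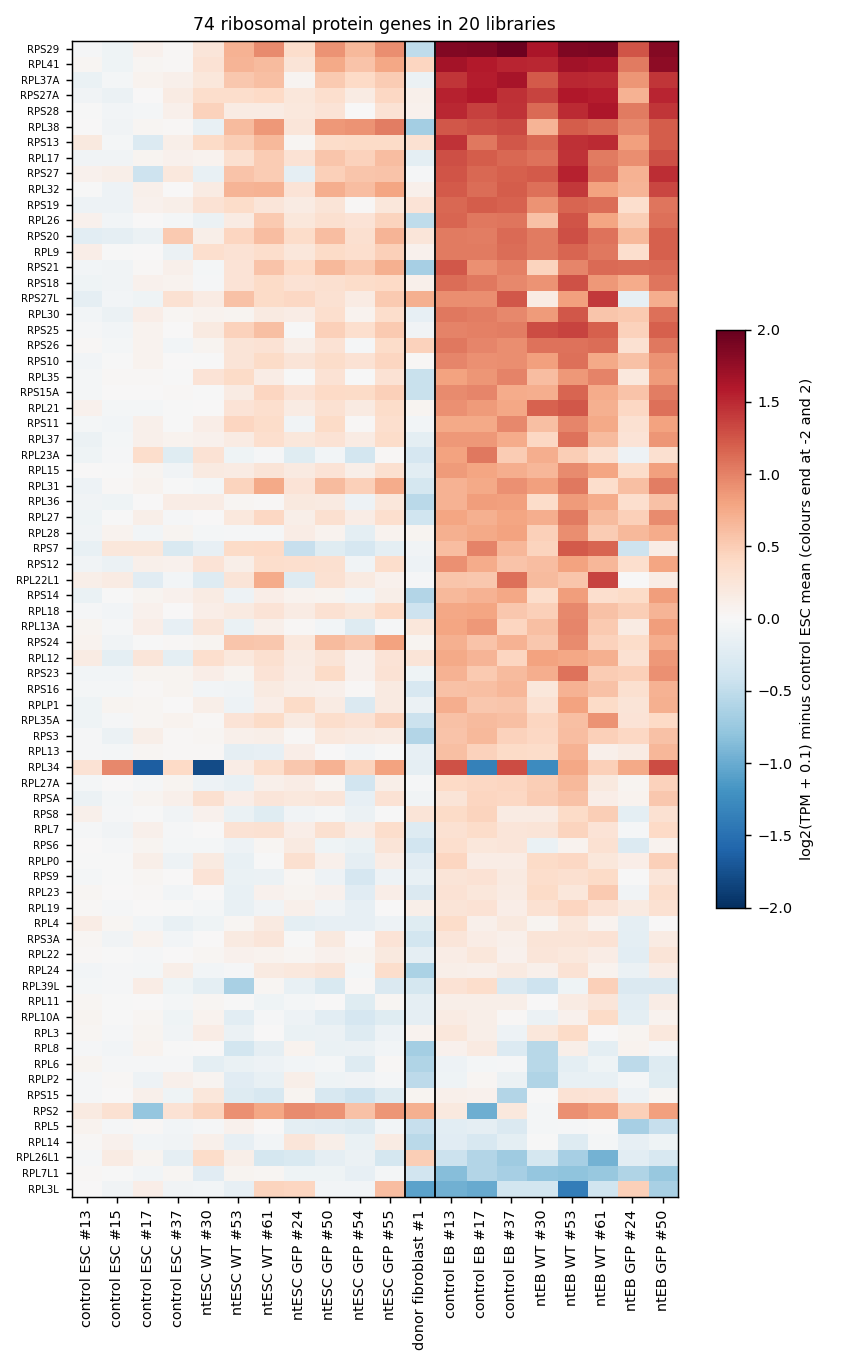
Each row is 1 of 74 of the genes, ordered by the log2 fold change of control EBs against control ESCs, and each column is 1 of the 20 libraries. Colour gives log2(TPM + 0.1) minus the mean of the 4 control ESC lines, from blue (-2) to red (2), so that the red block at the upper right holds the genes that were higher in EBs, with RPS29 at the top, and RPL34 stands out in blue in control #17 and WT #30 at both stages.

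The 6 paralogs went different ways. RPL7L1, which takes part in assembly of the large subunit, was at 168, 163, 158 and 168 TPM in control ESC #13, #15, #17 and #37 and at 90.5, 109 and 104 TPM in the control EBs. In ntESC WT #30, #53 and #61 it was at 141, 171 and 169 TPM and in their EBs at 96.4, 93.8 and 96.7 TPM, and ntESC GFP at 146 to 161 TPM gave EBs at 108 and 96.5 TPM. EBs lay below the stem cells in every line, and RPL7L1 fell in all 3 comparisons, by 0.70 (SE 0.10, adjusted p = 3.16e-05), 0.74 (SE 0.10, adjusted p = 7.53e-05) and 0.59 (SE 0.11, adjusted p = 0.00184). The GFP call was lost without ntEB GFP #50 (-0.51) and with the line as a block (-0.60, adjusted p = 0.055), though not in the same libraries without the block (adjusted p = 0.0237), and the value was -0.67 without ntEB GFP #24. Its level as a share of its parent RPL7 was 11.01% to 12.9% in control ESCs and 5.50% to 6.60% in control EBs.

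RPL26L1, a close relative of RPL26, was at 115, 131, 122 and 103 TPM in the control ESCs and 87.1, 78.0 and 71.6 TPM in the control EBs. The groups did not overlap, and the gene fell by 0.57 (SE 0.16, adjusted p = 0.00699) there and by 0.70 (SE 0.17, adjusted p = 0.00414) in the WT lines, from 150.4, 127 and 91.7 TPM to 91.2, 73.8 and 61.1 TPM. Both calls were lost under quantile normalization (-0.22 and -0.36) and under the median-of-ratios scaling (-0.30 and -0.36). In the GFP lines the stem cells, at 91.5 to 107 TPM, and the EBs, at 101 and 93.4 TPM, overlapped (-0.03, SE 0.18, adjusted p = 0.92, and -0.08 without #24). The parent rose, so that RPL26L1 was at 13.8% to 17.7% of RPL26 in control ESCs and 4.46% to 5.09% in control EBs, and at 30.7% in the fibroblasts, whose 165 TPM was the highest value of this paralog. RPL26 and RPL26L1 are near-identical in coding sequence, and their split rests on the reads that differ.

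RPS27L, a p53 target and relative of RPS27, was at 50.8, 55.2, 54.1 and 70.9 TPM in the control ESCs and 109, 109 and 135 TPM in the control EBs, a rise of 1.03 (SE 0.25, adjusted p = 0.00233). In ntESC WT #30, #53 and #61 the level was 64.2, 85.6 and 74.9 TPM and in their EBs 64.4, 101 and 153 TPM, so that the values at both stages were alike in #30 and far apart in #61 (0.42, SE 0.27, adjusted p = 0.203). In the GFP lines the stem cells were at 63.8 to 82.3 TPM and the EBs of #24 and #50 at 51.1 and 94.9 TPM (-0.07, SE 0.28, adjusted p = 0.879, and 0.38 without #24). Of 16 p53 target genes, 3 were higher and 6 lower in control EBs, shares near the 20.7% and 35.9% of all genes.

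RPL22L1, the paralog of RPL22 that is expressed next to it in many embryonic cells, was at 255, 264, 201 and 227 TPM in control ESCs and 344, 343 and 504 TPM in control EBs, and rose by 0.73 (SE 0.23, adjusted p = 0.0143). The call was lost without control EB #37 (0.55). WT lines had 197, 280.3 and 395 TPM in stem cells and 366, 346 and 599 TPM in EBs (0.60, SE 0.25, adjusted p = 0.0606), a change that passed with the line as a block (adjusted p = 0.0312) and not in the same 16 libraries without it (adjusted p = 0.0975). It also passed under quantile normalization (0.82), the median-of-ratios scaling (0.93) and rescaling over the other genes (0.71), and without ntESC WT #61 (0.85) or ntEB WT #53 (0.74). GFP lines had 197 to 291 TPM and then 237 and 261 TPM (0.01, SE 0.27, adjusted p = 0.992), with 0.07 without ntEB GFP #24. Its level was 31.7% to 41.4% of that of RPL22 in control ESCs and 45.8% to 73.7% in control EBs, while RPL22 itself stayed between 557 and 770.1 TPM in all ESC, ntESC and EB libraries.

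RPL3L, the striated muscle form of RPL3, was near the lower end of the measured range, at 2.12 to 2.47 TPM in control ESCs, 1.06 to 1.70 TPM in control EBs and 1.01 TPM in fibroblasts, or 0.109% to 0.121% of RPL3 in the ESCs. Its log2 fold changes of -0.78 (adjusted p = 0.0625) and -0.79 (adjusted p = 0.0892) in control and WT lines did not pass. Of 11 striated muscle markers tested, 3 were higher and 1 lower in control EBs, against 20.7% and 35.9% of all genes. RPL39L, best known from male germ cells in the mouse, was at 32.1 to 38.1 TPM in control ESCs and at 28.0 to 43.9 TPM in control EBs, which overlapped (0.12, SE 0.21, adjusted p = 0.647). Of 11 germ cell markers, 1 was higher and 6 were lower in control EBs, against the same shares of all genes.

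**Figure D4:**
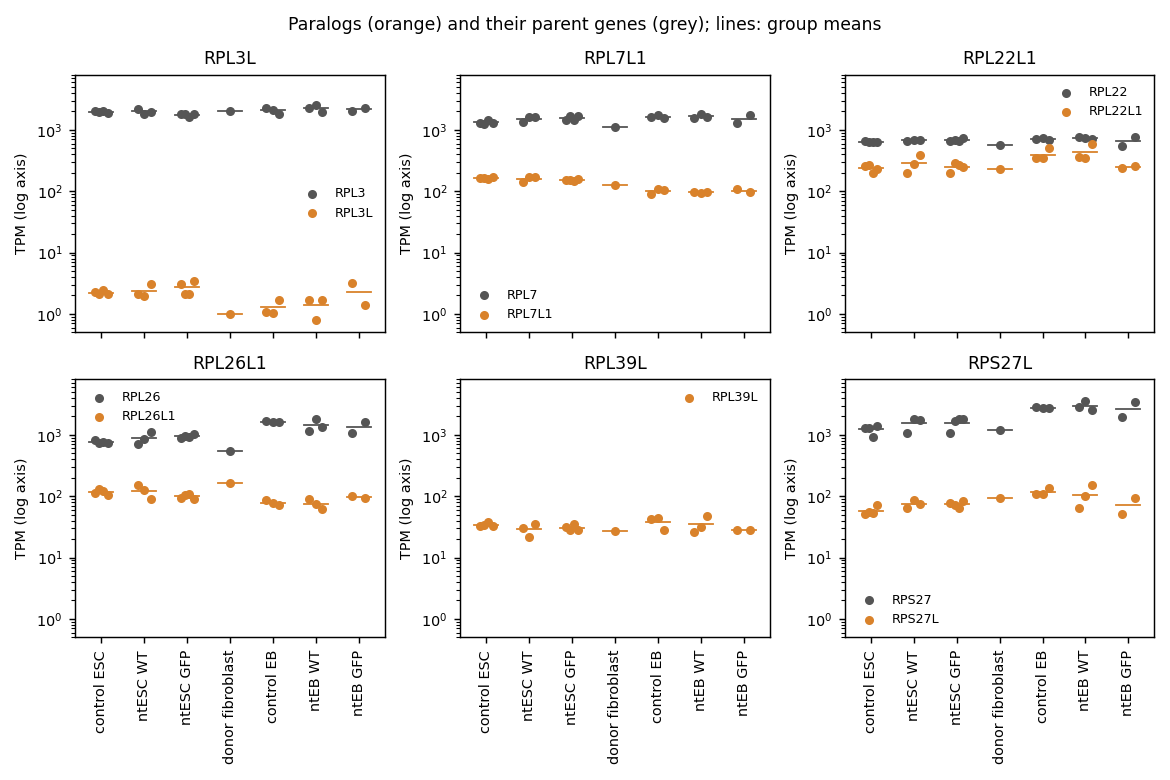
Each panel shows 1 paralog (orange) and its parent (grey, not shown for RPL39L) in TPM on a log axis, with 1 point per library and a line at the group mean, over the 7 groups. RPL26L1 and RPL7L1 are lower in control EBs (71.6 to 87.1 TPM and 90.5 to 109 TPM) than in control ESCs, RPS27L and RPL22L1 are higher, and RPL3L lies at 0.795 to 3.46 TPM throughout.

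At the stem cell stage the question was whether ntESCs differ from control ESCs. In ntESC WT against control ESC 0 members were higher and 0 lower by limma, against 0.0186% and 0.0745% of 16118 genes, and 21 members (of 3103 genes) had an unadjusted p under 0.05. In ntESC GFP against control ESC the counts were likewise 0 and 0, against 0.223% and 0.217% of genes, with 32 members (of 2229 genes) at an unadjusted p under 0.05. The median log2 fold change of the members was 0.15 in WT and 0.17 in GFP lines, whereas the median of all genes was -0.01 in WT lines and still smaller in size in GFP lines. Every WT line lay above every control line for 19 members and below for 2 (RPL19 and RPL6), against 5.53% and 7.59% of all genes. Every GFP line lay above every control line for 24 members and below for 2 (RPL3 and RPL10A), against 5.6% and 5.96% of all genes. Of these higher members 9 were shared, 47.4% of the 19 and 37.5% of the 24. The comparisons use the same 4 control lines.

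Calls appeared when single lines were left out. For WT lines, 2 members were called higher without ntESC WT #61, RPS27A among them. For GFP lines, 4 were called without ntESC WT #30 and 3 without ntESC WT #61, which enter only through the shared spread, and 1, RPL41, was called without ntESC GFP #24. The share of all genes called in these fits is not given here, so whether the members alone gained calls is open. The sums of the fibroblast markers set ntESC WT #30 (1259 TPM) and #53 (1037 TPM) above the other stem cell lines (152 to 475 TPM), and the part of this in the ribosomal protein values was not tested.

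RPS29 was at 588 to 661 TPM in control ESCs, at 736, 1010.5 and 1192 TPM in ntESC WT #30, #53 and #61 and at 795, 1158, 977 and 1179 TPM in ntESC GFP #24, #50, #54 and #55. All 7 ntESC lines exceeded the 4 controls, and #30 and #24 were the lowest of them. The log2 fold changes were 0.63 (SE 0.17, adjusted p = 0.144) and 0.71 (SE 0.16, adjusted p = 0.102).

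RPL41 also lay above all controls in every ntESC line, with 1089.7 to 1191 TPM in controls, 1419.6, 1855 and 1807 TPM in ntESC WT and 1379, 1952, 1722 and 1981 TPM in ntESC GFP, and log2 fold changes of 0.54 (SE 0.14, adjusted p = 0.127) and 0.59 (SE 0.13, adjusted p = 0.0957). RPL38 was at 1264 to 1369.6 TPM in controls, but at 1196 TPM in ntESC WT #30, below them, against 2069 and 2442 TPM in #53 and #61 and 1576, 2439, 2495 and 2695 TPM in the GFP lines. RPS27A had 822 to 998 TPM in controls and 1136 to 1177 TPM in ntESC WT, with no overlap (0.37, SE 0.09, adjusted p = 0.118), while ntESC GFP #54, at 996 TPM, reached into the control range.

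Member by member, 54 of 77 genes in ntESC WT #61 and 55 in ntESC GFP #55 were above the range of the 4 controls, but 33 in ntESC WT #30 and 30 in ntESC GFP #54. In those 4 lines 23.5%, 21.9%, 31.7% and 35.7% of all genes were above that range. Each control line was also set against the narrower range of the other 3 controls. There 33 members were above it in control ESC #17, 21 in #37, 15 in #13 and 8 in #15, with 23.1% to 26.4% of all genes. The count of ntESC WT #30 thus equalled that of a control line, and that of GFP #54 was lower. GFP #54 had 25 members below the range, where 27.9% of all genes were below it. Its median log2 difference from the control mean was 0.02, the lowest of the 7 ntESC lines, which otherwise had 0.07 to 0.29.

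Between EBs no difference of the members was called. In ntEB WT against control EB 0 members were higher and 0 lower by limma, against 0% and 0.00602% of 16621 genes, and 0 members (of 637 genes) had an unadjusted p under 0.05. The median was -0.03, the same as for all genes. Every ntEB WT library lay above all control EBs for 6 members (RPS25, RPL5, RPL19, RPS26, RPS9 and RPS3A) and below for 3, RPLP2 and RPL38 among them, against 4.58% and 5.28% of all genes. In ntEB GFP against control EB the counts were 0 and 0, against 0.00602% in each direction, with 2 members (of 1573 genes) at an unadjusted p under 0.05. The median was -0.16 against 0.20 for all genes, but it rested on #24, with 0.04 without that library and -0.36 without #50. Both GFP EBs lay above all control EBs for 3 members (RPS2, RPL26L1 and RPL14) and below for 16, against 23.8% and 14% of all genes. In ntEB GFP #24 alone, 64 of the 77 members were below the range of the control EBs and 4 above it, where 24.9% of all genes were below and 54.9% above. ntEB GFP #50 had 17 below and 30 above, where 31.8% of all genes were below and 32.9% above.

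Some members differed widely between lines of the same group. RPL34, a large subunit protein, was at 690.2, 1098, 179.8 and 745 TPM in control ESC #13, #15, #17 and #37, at 164, 625 and 718 TPM in ntESC WT #30, #53 and #61 and at 819, 916, 772 and 990.3 TPM in ntESC GFP #24, #50, #54 and #55. Control #17 and WT #30 thus had the lowest values, below the 501 TPM of the fibroblasts. The EBs of the same lines were again lowest, at 222 TPM for #17 and 237 TPM for #30, against 1369.5 and 1400.3 TPM in control EBs #13 and #37, 961 and 788 TPM in ntEB WT #53 and #61 and 950.2 and 1390.0 TPM in ntEB GFP #24 and #50. A log2 fold change of 0.41 in control EBs had a standard error of 0.72 (adjusted p = 0.641). In the 16 paired libraries, which lack control ESC #15, it was 0.73, and it passed with the line as a block (adjusted p = 0.0107) but not without (adjusted p = 0.475).

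Among 11145 genes compared over the 19 ESC, ntESC and EB libraries, the one most opposite to RPL34 was LOC100413092, which carries no product name (r = -0.95 across libraries, which share lines). It was at 114 TPM in control ESC #17 and 68.2 TPM in ntESC WT #30, and at 33.6 and 31.9 TPM in their EBs. In the other 15 of these libraries it was between 1.90 and 5.46 TPM. LOC100387518 was the most alike (r = 0.93), at 2.94 and 3.20 TPM in ESC #17 and ntESC #30 and 43.4 to 125 TPM in the other stem cell lines. This and the other LOC identifiers named here were chosen after their values were seen.

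RPS2, a small subunit protein near the mRNA entry, was at 2456, 2669.9, 1261 and 2648 TPM in control ESC #13, #15, #17 and #37, at 2933, 4079 and 3690.3 TPM in ntESC WT #30, #53 and #61 and at 4147, 4037, 3239.8 and 4008 TPM in ntESC GFP #24, #50, #54 and #55. All 7 ntESC lines exceeded the 4 controls, with log2 fold changes of 0.71 (SE 0.24, adjusted p = 0.185) and 0.83 (SE 0.22, adjusted p = 0.149), which became 0.45 and 0.57 without control ESC #17. In EBs control #17 was again the lowest, with 2481, 1099 and 2494 TPM in control #13, #17 and #37, 2116, 4076 and 3868 TPM in WT #30, #53 and #61 and 3001 and 3811 TPM in GFP #24 and #50. RPS2 did not pass between stages in any of the 3 comparisons (-0.19, -0.13 and -0.18).

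A copy of RPS2, LOC100394437, which RefSeq lists as a transcribed pseudogene, divided the lines sharply. It was at 278, 300.5, 581 and 301 TPM in control ESC #13, #15, #17 and #37 and 324 TPM in ntESC WT #30. In the other 6 ntESC lines it was at most 0.333 TPM, 4 of them listed at 0, and in the fibroblasts it was at 0.664 TPM. In EBs it was at 113, 232 and 114 TPM in control #13, #17 and #37 and 141 TPM in WT #30, against 0.117 to 0.438 TPM in the other 4. A further RPS2-like identifier, LOC108592091, had the same division, at 41.0 to 105 TPM in the control ESCs and ntESC WT #30, 24.5 to 60.8 TPM in their EBs and at most 0.666 TPM elsewhere. LOC100394437 amounted to 11.3%, 11.3%, 46.1% and 11.4% of RPS2 in the 4 control ESCs and 11.1% in ntESC WT #30. Reads of RPS2 and of these copies can fall to either, so the level of RPS2 and its difference between lines are uncertain. An RPL3-like identifier, LOC103793262, was at 5.69 to 12.2 TPM in control ESCs and at 0.424 to 1.27 TPM in all ntESC lines, and was called lower in ntESC WT (-2.63, SE 0.34, adjusted p = 0.0183) and ntESC GFP (-3.31, SE 0.32, adjusted p = 0.000798), whereas RPL3 itself was at 1649 to 2194 TPM in those lines.

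**Figure D5:**
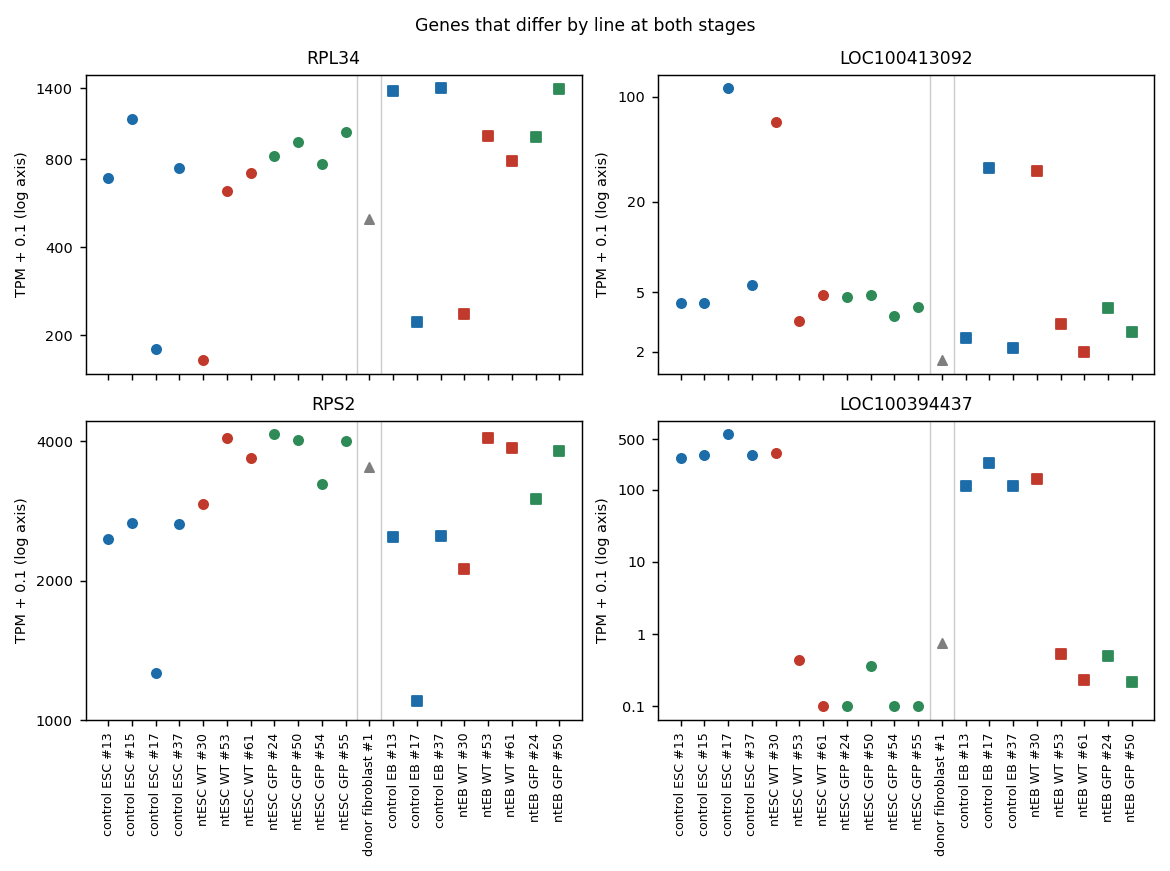
Points are the 20 libraries on log axes of TPM + 0.1, circles for stem cells, squares for EBs and a triangle for fibroblasts, in blue for control, red for WT and green for GFP lines. RPL34 is low in #17 and #30 at both stages (164 to 237 TPM), where LOC100413092 is high (31.9 to 114 TPM), and LOC100394437 is above 100 TPM only in the control lines and WT #30 while RPS2 is lowest in #17.

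RPS7, a small subunit protein that also binds MDM2 and that was picked after its values were seen, was at 787, 1023, 1029.9 and 710.3 TPM in control ESC #13, #15, #17 and #37, at 783, 1142 and 1151 TPM in ntESC WT #30, #53 and #61 and at 636, 738, 693 and 766 TPM in ntESC GFP #24, #50, #54 and #55. Its EBs had 1337, 1746 and 1381 TPM in control #13, #17 and #37, 1194, 2044 and 1956 TPM in WT #30, #53 and #61, but 659 and 975 TPM in GFP #24 and #50. It rose in control lines (0.75, SE 0.21, adjusted p = 0.00635) and in WT lines (0.74, SE 0.23, adjusted p = 0.014), the latter not without ntESC WT #30 (0.56) or ntEB WT #53 (0.60). In GFP lines the log2 fold change was 0.18 (SE 0.24, adjusted p = 0.594), and 0.46 without #24. Both GFP EBs lay below all other EBs, with -0.88 against control EBs (SE 0.30, unadjusted p = 0.0204, adjusted p = 0.528), and -0.60 without #24.

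Other genes of protein synthesis did not all move as the members did. Among ribosomal proteins that the symbol rule leaves out, FAU, which carries RPS30, was at 1636 to 1807 TPM in control ESCs and 2303, 2316 and 2253 TPM in control EBs and rose by 0.44 (SE 0.14, adjusted p = 0.0131) and RPL36AL by 0.57 (SE 0.12, adjusted p = 0.000941), whereas RACK1, a scaffold on the small subunit, had 0.21 (SE 0.12, adjusted p = 0.166). In WT lines FAU (0.45, SE 0.15, adjusted p = 0.0198) and RPL36AL (0.47, SE 0.13, adjusted p = 0.00791) rose, and in GFP lines FAU (0.24), RPL36AL (0.31) and RACK1 (-0.09) did not pass. The 45 ribosome biogenesis genes, which make and process ribosomal RNA, went the other way, with 42 lower and 0 higher in control EBs, 40 and 0 in WT EBs and 39 and 0 in GFP EBs (medians -1.33, -1.45 and -1.08).

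For the next counts the shares of all genes called higher and lower were those given above, 20.7% and 35.9% in control, 14.3% and 32.1% in WT and 13.6% and 16.2% in GFP lines. Of 74 mitochondrial ribosomal protein genes, whose products form the separate ribosome of mitochondria, 11 were higher and 38 lower in control EBs, 7 and 34 in WT EBs and 3 and 35 in GFP EBs (medians -0.32, -0.34 and -0.43). Of 35 translation factors 8 were higher, a share near that of all genes, and 19 lower in control EBs, then 3 and 19, and 2 and 15. Proliferation markers fell as well, with 19, 20 and 17 of 20 lower. Their sum was 3456 to 4359 TPM in stem cell lines and 842 to 1740 TPM in EBs apart from ntEB GFP #24, at 3093 TPM. Their part and that of the cell types present in the ribosomal protein values was not tested. Between ntESCs and control ESCs, none of the 74, 45 and 35 genes of these lists was called, apart from 1 mitochondrial ribosomal protein gene lower in the GFP lines.

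In the donor fibroblasts, 1 library with no replicate, 44 of the 77 members were below the range of the control ESCs and 14 above it, while 53.2% of all genes were below and 31.2% above. The median log2 difference from the control mean was -0.17 for the members and -0.41 for all genes. RPL38 (829 TPM) and RPS29 (435 TPM) were lower there than in any other library, and RPS18 (5319.9 TPM), RPL13A (4832 TPM), RPL41 (1567 TPM) and RPS2 (3529 TPM) lay above all control ESC lines.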

How the data were processed

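The authors made stranded poly(A) libraries, read them as pairs on NovaSeq instruments, trimmed reads with fastp, mapped them to calJac4 with STAR, which kept reads of 1 location with no more than 1 mismatch, and counted genes with featureCounts. The study excluded the sex chromosomes, but 3 genes that RefSeq places on X or Y remained in the deposited TPM. The gene annotation, the strand setting and the instrument of each library were not given in the sources used here. Dropping reads with more than 1 location lowers genes with near-identical copies by an unknown amount. Each library sums to 1000000 TPM, which hides its depth, and no 2 libraries were identical.

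From the deposited TPM, log2(TPM + 0.1) entered limma 3.58.1 (R 4.3.3), with lmFit, a trended eBayes, Benjamini-Hochberg adjustment and a threshold of 0.05. Genes had to average 0.5 TPM or more. The 11 stem cell libraries (16118 genes), the 8 EB libraries (16621 genes) and all 19 (16545 genes) formed 3 fits, each with 1 shared spread, and 3 genes annotated on X or Y were left out. Comparisons between stages span the 2 tables, which rests on the scaling of TPM. Fold changes of low genes are understated by the pseudocount. limma was tested on simulated data. A replicate is a line. Nothing shows that lines of a group came from separate donors, so p-values may measure only the spread between lines. Alternatives were a pseudocount of 1, no filter, quantile and median-of-ratios scaling, rescaling without the members, leaving out each library, and the line as a block.

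EB and stem cell libraries of a line come from the same cell line. They were paired by it only in the fit with the line as a block, and the main fits took all libraries as independent. Deviations from the group means correlated by 0.04 in #13, 0.26 in #17, 0.15 in #37, 0.12 in #30, 0.26 in #53, 0.21 in #61 and 0.17 in #24 and #50. The values of #24 and #50 had to be equal, since these were the only paired GFP lines and their deviations mirror each other.

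Named were the paralogs and their parents, the up to 5 largest called rises and falls between stages, the 5 highest and 5 lowest means over the 11 stem cell libraries, and the 5 widest ranges among them. Some genes, 3 members among them, are counted but not reported here by name. Other names were chosen after their values were seen. The members and 13 gene lists were chosen with earlier results of these data known. RefSeq (calJac240_pri) gave names only, for 76 of the 77. Python 3.11.15, numpy 2.4.6, pandas 2.3.3, scipy 1.17.1 and matplotlib 3.10.9 were used.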

Additional observations from a re-analysis of the deposited data

Results flagged for a closer look

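In groups of 4 libraries, 5 of 52 sets of values had 1 library far from the other 3 by Dixon's criterion. They were RPS2 in control ESC #17 (1261 TPM), RPL3 (1649 TPM), RPS12 (3086 TPM) and RPS2 (3240 TPM) in ntESC GFP #54, and RPS27 in ntESC GFP #24 (1064 TPM). Some of the genes, RPS2 among them, were named for their wide range over the same libraries, and the sets share libraries. The number of such sets that chance would give is therefore not known. Of 26 values, those of 25 genes and the summed share of the 77, 7 had a level in the donor fibroblast library, which entered no test, above all 4 control ESC lines. These were RPL26L1 (164.7 TPM), RPS27L (94.01 TPM), RPL3 (2060 TPM), RPL41 (1567 TPM), RPS18 (5320 TPM), RPL13A (4832 TPM) and RPS2 (3529 TPM). In 50 comparisons, 25 genes in WT and in GFP lines against control lines, 0 moved in opposite directions in every line of both.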

How the results depend on the processing

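Between stages, the median log2 fold change of the members kept its sign under every scaling (0.37 to 0.97 in control, 0.18 to 0.81 in WT and 0.13 to 0.42 in GFP lines). Counts moved by over 1.5 times as follows. Quantile normalization gave 9 lower in control lines, 28 higher and 8 lower in WT lines and 11 higher and 6 lower in GFP lines, and the median-of-ratios scaling gave 1 lower in each. The counts of all genes under quantile normalization stand above. Of 16525 genes, the median-of-ratios scaling called 4690, 3689 and 2455 lower in control, WT and GFP lines. With the line as a block (replicate block), 9 were higher and 0 lower in GFP lines, and without the block in the same 16 libraries, a fit added after seeing the data, 8 and 1. The block gave 49 higher and 2 lower in control lines and 44 and 2 in WT lines. Leaving out 1 library at a time gave 1 to 40 higher and 1 to 3 lower in GFP lines, 0 to 2 higher in ntESC WT and 0 to 4 higher in ntESC GFP against control ESC, and 0 to 26 lower in the GFP response against control. Signs turned under quantile normalization for RPL3 in control lines (-0.30), for RPL13A (-0.12) and RPS18 (-0.18) in WT lines and RPS18 (-0.22) in GFP lines, and for RPL5 in control lines under the median-of-ratios scaling (0.044). The cause of these shifts was not tested. Over comparisons and settings, 4756 values did not change, which are single genes with the same call and member medians within the spread between libraries. Of single genes, 72 lost and 49 gained a call with the same sign, and 5 turned sign with a call before or after. The other 6 values are medians that moved by more than that spread. Unknown depth and reads lost to copies limit all levels.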
